A study of Mus musculus with 12 samples.

Results

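The mitochondrially encoded genes were described in 12 tumors of CT-26 cells, a colon carcinoma line derived from a BALB/c mouse. Members are all listed genes whose mouse Ensembl identifier carries a symbol starting with mt- in the GENCODE M21 annotation. This gave 15 of the 30630 genes, made up of all 13 genes that code for a protein and both ribosomal RNA (rRNA) genes. The other mitochondrial genes of the annotation, 22 transfer RNA (tRNA) genes, had 0 entries among the listed genes and were not analysed here. CT-26 cells had been injected under the skin of the flank of BALB/c mice, which were 4 to 6 weeks old when they were bought. RNA was sequenced from 6 tumors of the control group and 6 tumors of the swimming group, each from a separate mouse out of 10 per group. The swimming mice were trained 2 times per day on 6 days per week for 3 weeks, with sessions lengthened up to 30 min, and the control mice carried the same tumor without this training. The tumor line, the host strain and the injection were shared by both groups, and the comparison asks what the training changed in the tumors.

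Whole tumor tissue was sequenced, so host cells are part of every value, and fewer cells of a type and less RNA per cell cannot be told apart. FPKM is the number of sequenced fragments per kilobase of gene and per unit of sequencing depth, so levels of different genes are given per length. How well this scaling holds for short genes, such as mt-Atp8 with 204 bases, was not tested. Of 8 epithelial markers, Epcam, Cdh1, Vil1, Cdx2 and Krt19 were below 1 FPKM in every tumor, while Krt20 was at 99.8 to 194 FPKM, Krt18 at 5.89 to 14.8 FPKM and Krt8 at 1.86 to 129 FPKM, with the highest value in control 4. The sum of these 8 markers was 134 to 323 FPKM in the control tumors and 119 to 168 FPKM in the swimming tumors, where 0 of 6 were above the control median, and their part in the mitochondrial values was not tested. Vim, a mesenchymal marker, was at 442 to 724 FPKM. Summed FPKM per tumor ranged from 380139 to 407109, and 22293 to 23974 genes were above 0. FPKM values hold no fragment numbers, so the absolute depth is unknown.

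Mitochondria carry a small circular genome of their own, separate from the chromosomes of the nucleus. Its messenger RNAs (mRNAs) code for core subunits of the respiratory chain, which pumps protons across the inner membrane as electrons pass to oxygen, and of the ATP synthase, which uses that gradient to make ATP. Both DNA strands are transcribed into long precursors, from which the tRNAs, rRNAs and mRNAs are cut, so that neighboring genes start from the same precursor and their final levels also depend on processing and decay. All other subunits of these complexes are encoded in the nucleus and imported.

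Of the 13 mRNA genes, 12 lie on the plus strand of the mitochondrial chromosome and only mt-Nd6 lies on the minus strand. None of them has introns. Along the chromosome, complex I genes lie at positions 2751 to 3707 (mt-Nd1), 3914 to 4951 (mt-Nd2), 9459 to 9806 (mt-Nd3), 9877 to 10173 (mt-Nd4l), 10167 to 11544 (mt-Nd4), 11742 to 13565 (mt-Nd5) and 13552 to 14070 (mt-Nd6). mt-Cytb lies at 14145 to 15288, mt-Co1 at 5328 to 6872, mt-Co2 at 7013 to 7696, mt-Co3 at 8607 to 9390, mt-Atp8 at 7766 to 7969 and mt-Atp6 at 7927 to 8607. The genes are packed so tightly that neighbors share bases. The last 43 bases of mt-Atp8 are the first 43 bases of mt-Atp6, read in another frame. The sequences are shown because the values of these genes part ways in the results, and the capitals mark the shared bases. Sequences and coordinates are from GENCODE M21 on the GRCm38 build, the reference strain C57BL/6J, written in DNA letters along the gene. The first is the 3′ end of mt-Atp8 (chrM:7897-7969, plus strand), the second the 5′ end of mt-Atp6 (chrM:7927-7999, plus strand), and the last the 5′ end of Gm10925, a copy of mt-Atp6 on chromosome 1 (chr1:24614579-24614651, minus strand).
mt-Atp8: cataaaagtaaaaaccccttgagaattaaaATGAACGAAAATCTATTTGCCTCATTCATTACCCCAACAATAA
mt-Atp6: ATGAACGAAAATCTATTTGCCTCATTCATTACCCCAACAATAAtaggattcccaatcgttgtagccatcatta
Gm10925: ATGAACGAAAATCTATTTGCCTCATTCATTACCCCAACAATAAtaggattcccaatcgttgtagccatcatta

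Other neighbors overlap less. mt-Nd4l and mt-Nd4 share 7 bases of the same strand. mt-Nd5 and mt-Nd6 overlap by 14 bases on opposite strands. The library kit is not stated to keep the strand, so fragments from there cannot be assigned to one of them. For the same reason the value of mt-Nd6 may hold RNA of both strands along its whole length, which was not tested. mt-Atp6 and mt-Co3 share 1 base. The capitals mark the shared bases in the 3′ end of mt-Nd4l (chrM:10137-10173, plus strand), the 5′ end of mt-Nd4 (chrM:10167-10203, plus strand), the 3′ end of mt-Nd5 (chrM:13522-13565, plus strand) and the 3′ end of mt-Nd6 (chrM:13552-13595, minus strand).
mt-Nd4l: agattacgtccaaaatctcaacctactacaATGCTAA
mt-Nd4: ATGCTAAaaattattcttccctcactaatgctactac
mt-Nd5: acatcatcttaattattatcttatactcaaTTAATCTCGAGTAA
mt-Nd6: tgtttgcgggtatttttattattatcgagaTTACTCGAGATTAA

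The lengths of 10 mRNA genes are a multiple of 3, and those of mt-Co3 (784 bases), mt-Nd4 (1378 bases) and mt-Cytb (1144 bases) leave 1 base over. In each of these the base left over is a T, the first letter of a stop codon that the added poly(A) tail completes, shown in capitals at the 3′ ends of mt-Co3 (chrM:9366-9390), mt-Nd4 (chrM:11520-11544) and mt-Cytb (chrM:15264-15288), all on the plus strand.
mt-Co3: gtctccatttattgatgaggatctT
mt-Nd4: aaactaattacaggcctgacaataT
mt-Cytb: gacaaaatactaaaattatatccaT

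The mRNA genes were among the most strongly expressed genes of every tumor. mt-Co1 had the highest FPKM of all listed genes in 12 of 12 tumors, with a median of 6233 FPKM. mt-Co2 (median 3281 FPKM) and mt-Cytb (median 2873 FPKM) took the next places among the mitochondrial genes in all 12 tumors. mt-Nd1 (2142 FPKM) and mt-Co3 (2087 FPKM) did not keep an order, since mt-Nd1 was the higher one in 7 of 12 tumors. Below them came mt-Atp8 (1993 FPKM), which was under mt-Co3 in 10 tumors. mt-Nd4 (1211 FPKM), mt-Nd2 (1160 FPKM) and mt-Nd4l (1110 FPKM) lay close together, with mt-Nd4 above mt-Nd2 in 10 tumors and mt-Nd2 above mt-Nd4l in 8. mt-Nd5 (803 FPKM) was above mt-Nd6 (638 FPKM) in all 12 tumors, and mt-Nd6 above mt-Nd3 (594 FPKM) in 7. mt-Atp6 had the lowest median, 471 FPKM, but ranged from place 4 to place 13. This order is of the genes without their nuclear copies, described below, 7 of them having such a copy on chromosome 1. With nuclear copies added, mt-Co3 was at 3507 to 5036 FPKM, above mt-Cytb (2634 to 3282 FPKM), and mt-Atp6 at 2687 to 5236 FPKM. mt-Nd4l was then at 1714 to 2472 FPKM and above mt-Nd4 (1473 to 1773 FPKM) in every tumor. mt-Nd3 was then at 983 to 1583 FPKM and above mt-Nd5 (591 to 875 FPKM) in every tumor. The order of these genes thus depends on whether the copies are counted. Between tumors the highest level of a gene was 1.18 to 1.604 times its lowest in 12 of the mRNA genes, and 6.42 times in mt-Atp6.

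**Figure D1:**
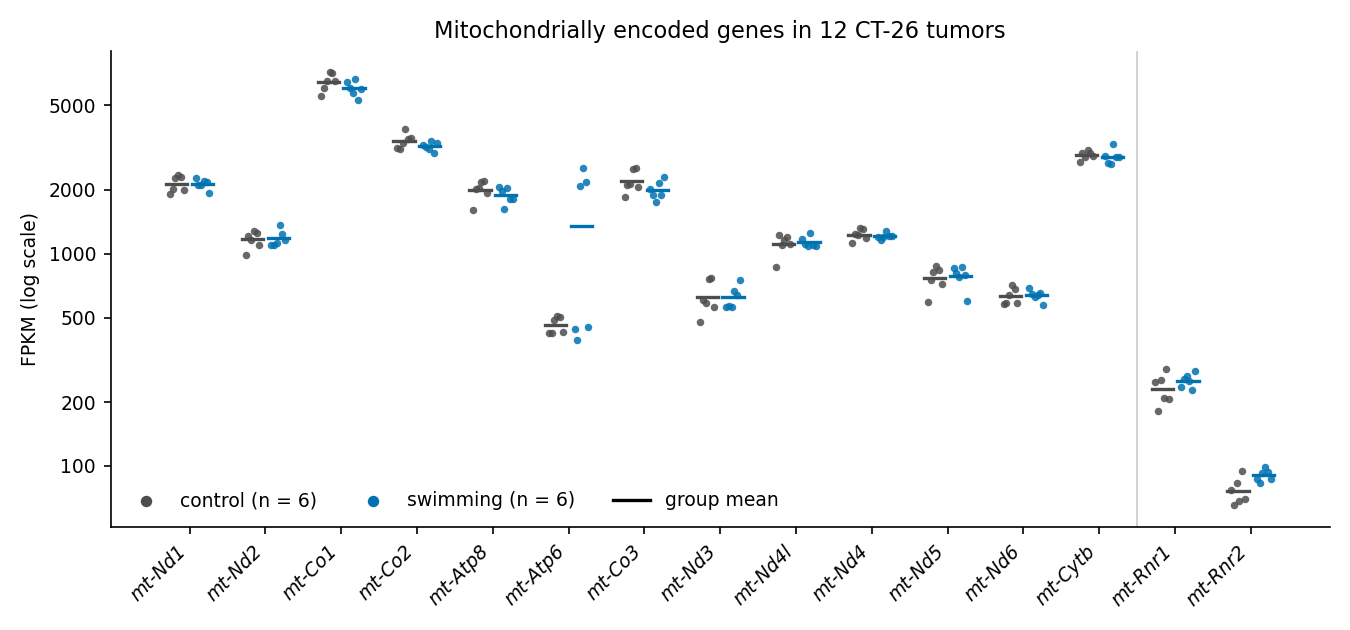
FPKM of the 15 mitochondrially encoded genes (x axis) in each tumor on a log y axis, with control and swimming tumors as separate points and group means as lines. mt-Co1 stood highest in all 12 tumors, and the swimming tumors of mt-Atp6 fell into values of 393 to 453 FPKM and of 2080 to 2527 FPKM.

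No mitochondrially encoded gene passed the test between the groups. The test was limma on log2(FPKM + 1), with Benjamini-Hochberg adjustment over 19018 genes that reached 0.1 FPKM in 6 tumors or more, which all 15 members passed. At an adjusted p below 0.05, 0 of the 15 members and 0 of all genes were called (0%), and the smallest adjusted p of a member was 0.889. At an unadjusted p below 0.05, 2 of the 15 members (mt-Atp6 and mt-Rnr2, both higher in the swimming group) were called, beside 5.56% of all genes in either direction, 3.11% in the higher and 2.46% in the lower direction. No member had groups that did not overlap, beside 0.147% of all genes. Of the 12 mRNA genes other than mt-Atp6, 6 had a positive log2 fold change, the median log2 fold change was -0.01, and the median size of the change was 0.0294 against 0.0639 over all genes tested. Below, n is 6 tumors per group, errors of levels are SDs, and log2 fold changes are swimming against control with their standard error (SE). Exact permutation tests are two-sided over the 924 divisions of the tumors, and their smallest possible p is 0.00216.

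**Figure D2:**
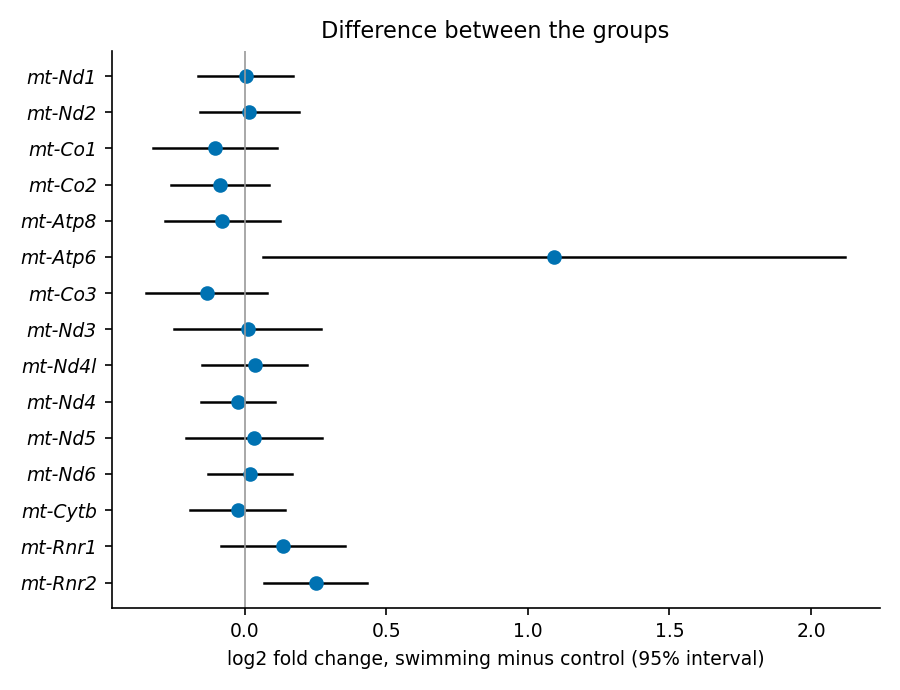
Log2 fold change of each mitochondrially encoded gene, swimming against control, with the 95% interval of the limma fit as a bar. Only the intervals of mt-Atp6 (0.06 to 2.12) and mt-Rnr2 (0.07 to 0.43) lay above 0 without adjustment.

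Complex I takes electrons from NADH, and the 7 mt-Nd genes code for parts of its membrane arm, through which protons are moved. Their group means lay close together, and 0 of the 7 passed the test. mt-Nd1 ranged from 1910 to 2336 FPKM in the control tumors (median 2135) and from 1929 to 2280 FPKM in the swimming tumors (median 2142). Means were 2133 ± 185 and 2134 ± 120 FPKM, and the log2 fold change was 0.00 with a 95% interval of -0.17 to 0.17, turning to -0.0019 with trimmed mean scaling. The swimming tumors lay wholly within the range of the control tumors. mt-Nd2 was at 987 to 1276 FPKM (median 1192) and at 1097 to 1361 FPKM (median 1140), with a log2 fold change of 0.02 (interval -0.16 to 0.19). Only swimming 4 was above the highest control tumor.

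mt-Nd3 had the largest ratio of highest to lowest level among these genes over the 12 tumors (1.604), at 477 to 765 FPKM in the control tumors (median 594) and 562 to 750 FPKM in the swimming tumors (median 600). Its means were equal to 3 digits, 624 ± 115 and 624 ± 76.6 FPKM, and the interval of the log2 fold change ran from -0.25 to 0.27. mt-Nd4l was at 863 to 1219 FPKM (median 1138) against 1081 to 1246 FPKM (median 1105), and mt-Nd4 at 1119 to 1322 FPKM (median 1230) against 1156 to 1276 FPKM (median 1206). In both genes the lowest tumor of all was control 1. The log2 fold change was 0.04 for mt-Nd4l (interval -0.15 to 0.22) and -0.02 for mt-Nd4 (interval -0.15 to 0.11).

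mt-Nd5 was at 591 to 875 FPKM in the control tumors (median 787) and 596 to 866 FPKM in the swimming tumors (median 803). Control 1 and swimming 6 were the lowest, and the groups overlapped fully. mt-Nd6, the gene of the other strand, was at 582 to 713 FPKM (median 613) against 572 to 690 FPKM (median 642). The log2 fold changes were 0.03 for mt-Nd5 (interval -0.21 to 0.27) and 0.02 for mt-Nd6 (interval -0.13 to 0.17). mt-Nd6 also differs in composition, with 28.1% G and 5.97% C, while the other mRNA genes have 5.88 to 16.1% G and 22.1 to 29.97% C. Summed over the complex I genes, the level was 7661 ± 713 FPKM in the control tumors and 7700 ± 350 FPKM in the swimming tumors.

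mt-Cytb codes for cytochrome b, the only subunit of complex III that the mitochondrial genome encodes, which passes electrons from ubiquinol within the complex. It was at 2691 to 3081 FPKM in the control tumors (median 2935) and 2634 to 3282 FPKM in the swimming tumors (median 2847). Swimming 4 was the highest tumor, and the other 5 swimming tumors were below the control median with the groups overlapping. The log2 fold change was -0.02 (SE 0.08, interval -0.19 to 0.14), and 0.0229 after quantile normalization.

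mt-Co1, mt-Co2 and mt-Co3 code for the core of complex IV, cytochrome c oxidase, where oxygen is reduced, and all 3 were lower on average in the swimming group without passing the test. mt-Co1, which holds the site of oxygen reduction, was at 5553 to 7145 FPKM in the control tumors (median 6490) and 5315 to 6642 FPKM in the swimming tumors (median 6003). Only 1 swimming tumor was above the control median, and the groups overlapped. Its log2 fold change was -0.10 (SE 0.10, adjusted p = 0.934 by limma with Benjamini-Hochberg adjustment, exact permutation p = 0.184).

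mt-Co2, which takes electrons from cytochrome c, was at 3124 to 3872 FPKM (median 3400) against 2989 to 3397 FPKM (median 3212). Here 0 of the 6 swimming tumors were above the control median, the ranges overlapped, and the log2 fold change was -0.09 (SE 0.08, exact permutation p = 0.141). mt-Co3 was at 1849 to 2520 FPKM (median 2126) against 1753 to 2304 FPKM (median 1951), with 2 swimming tumors above the control median and a log2 fold change of -0.13 (SE 0.10, exact permutation p = 0.177). Summed, the complex IV genes were at 12076 ± 1098 FPKM in the control tumors and 11215 ± 746 FPKM in the swimming tumors. As a share of the 12 mRNA genes without mt-Atp6 they held 49.0 ± 0.982% in the control tumors and 47.4 ± 1.37% in the swimming tumors, where 0 of 6 tumors were above the control median. The ranges, 47.2 to 49.9% and 44.96 to 49.2%, overlapped, and this share was not tested.

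**Figure D3:**
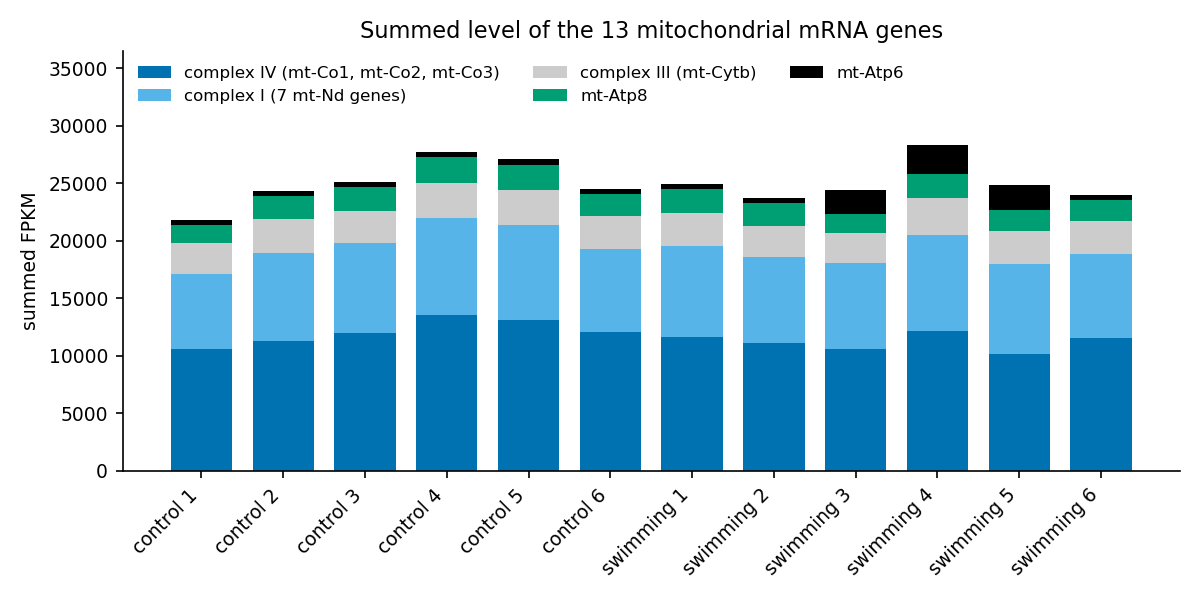
Stacked bars of the summed FPKM (y axis) of the 13 mitochondrial mRNA genes in each tumor (x axis), split into complex IV, complex I, mt-Cytb, mt-Atp8 and mt-Atp6. The bars reach 21803 FPKM in control 1 and 28299 FPKM in swimming 4, and the mt-Atp6 block is thick only in swimming 3, 4 and 5 (2080 to 2527 FPKM).

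mt-Atp6 and mt-Atp8 code for the membrane subunits a and A6L of the ATP synthase, subunit a forming the path of the protons, and they are read from 1 shared mRNA. In spite of this, mt-Atp6 did not follow mt-Atp8 over the tumors, and 3 tumors differed from the other 9. In the control group mt-Atp6 was at 422, 425, 488, 507, 504 and 429 FPKM in control 1 to 6. In the swimming group it was at 443, 393, 2080, 2527, 2183 and 453 FPKM in swimming 1 to 6. Swimming 3, 4 and 5 were thus each above 2000 FPKM, while the other 9 tumors of both groups were below 510 FPKM. Group means were 463 ± 41.3 and 1346 ± 1015 FPKM. The log2 fold change was 1.09 (SE 0.48, interval 0.06 to 2.12, 2.13-fold), and by limma the unadjusted p was 0.0389. After Benjamini-Hochberg adjustment by limma the adjusted p was 0.889. The exact permutation p was 0.16, and only 3 of 6 swimming tumors were above the control median. Without swimming 3, 4 and 5, a choice made after the data were seen, the log2 fold change was -0.10 (limma, unadjusted p = 0.26). The 3 tumors left out are those with the high values, so this p is no test of the step.

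mt-Atp8 showed no such step. It was at 1605 to 2199 FPKM in the control tumors (median 2026) and 1627 to 2059 FPKM in the swimming tumors (median 1892), with a log2 fold change of -0.08 (SE 0.09, interval -0.28 to 0.12). In swimming 3, 4 and 5 mt-Atp8 was at 1627 to 2036 FPKM, within its range of 1605 to 2199 FPKM in the other 9 tumors. The ratio of mt-Atp6 to mt-Atp8 was 0.200 to 0.263 in those 9 tumors and 1.2 to 1.28 in swimming 3, 4 and 5. mt-Co3, which begins at the last base of mt-Atp6, was at 1753 to 2153 FPKM in swimming 3, 4 and 5 and at 1849 to 2520 FPKM in the other 9 tumors. The step in mt-Atp6 thus had no counterpart in the gene on either side.

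Gm10925, the copy of mt-Atp6 on chromosome 1 shown with the sequences, is identical to it over 678 bases, all but the last 3 of the gene. A fragment from that stretch can map equally well to both places. Gm10925 was at 2304 to 2949 FPKM in the 9 tumors and at 2232 to 2721 FPKM in swimming 3, 4 and 5. The ratio of mt-Atp6 to Gm10925 was 0.169 to 0.186 in the 9 tumors and 0.920 to 0.932 in swimming 3, 4 and 5, with 0 tumors in between. Put as copy over gene, the ratio was 5.38 to 5.91 in the 9 tumors and 1.07 to 1.09 in swimming 3, 4 and 5. Other nearly full-length copies, described below, had 0.976 to 1.09 times the FPKM of their gene in all 12 tumors. By this measure the 9 tumors, with all control tumors among them, departed from the other pairs, and swimming 3, 4 and 5 did not. The nuclear copy therefore carried the higher value of the pair in all 12 tumors. With the FPKM of the copy added to that of mt-Atp6, the log2 fold change between the groups was 0.27 (limma, unadjusted p = 0.112). This sum, scaled to the length of the gene, was 4303, 5236 and 4545 FPKM in swimming 3, 4 and 5. In the other 9 tumors it was 2687 to 3440 FPKM, so the same 3 tumors remained the highest. How the fragments were divided between gene and copy was not tested, since the deposited values hold no alignments.

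**Figure D4:**
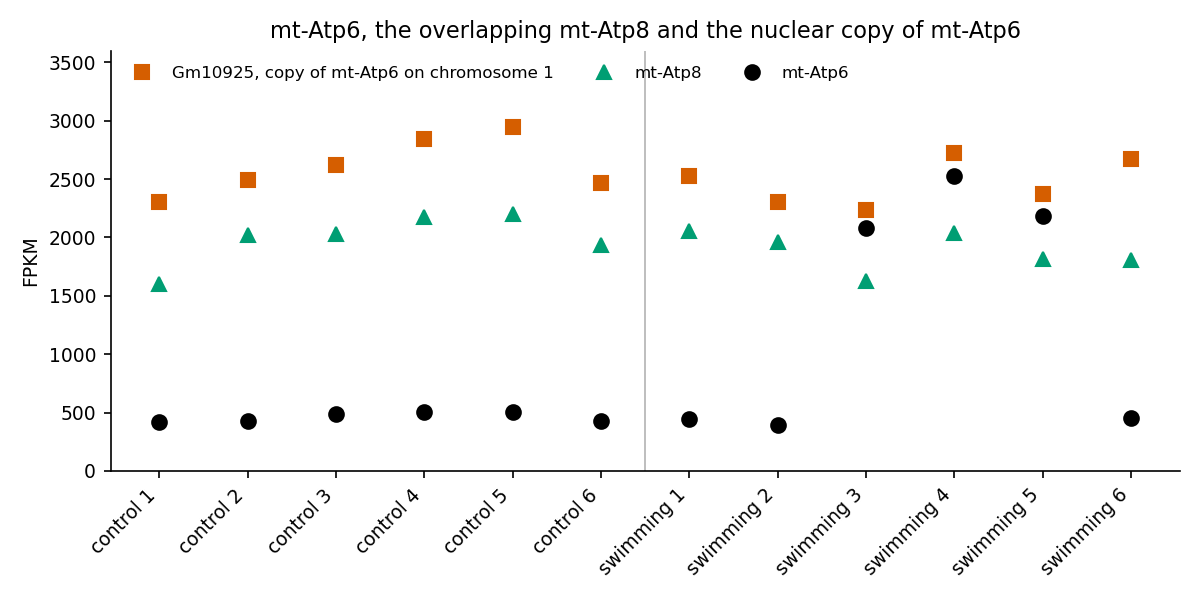
FPKM of mt-Atp6, mt-Atp8 and Gm10925, the identical nuclear copy of mt-Atp6, in each of the 12 tumors (x axis). mt-Atp6 was at 393 to 507 FPKM in 9 tumors and at 2080 to 2527 FPKM in swimming 3, 4 and 5, while mt-Atp8 and Gm10925 showed no such step.

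The same stretch of chromosome 1 bears on 6 other members. It holds 7 unprocessed pseudogenes in a row, copies of mt-Co1, mt-Co2, mt-Atp6, mt-Co3, mt-Nd3, mt-Nd4l and mt-Nd4, between positions 24611535 and 24616197 on the minus strand. Of these, 5 matched the mitochondrial gene without a mismatch, namely Gm28439 (mt-Nd4, 876 bases), Gm10222 (mt-Nd4l, 294 bases), Gm28437 (mt-Co3, 783 bases), Gm10925 (mt-Atp6, 678 bases) and Gm28661 (mt-Co2, 681 bases). Gm28438 and Gm29216 differed by 1 base each in the aligned stretch, which covered 100% of Gm28438 and 98.17% of Gm29216. The substitutions, with the base of the mitochondrial gene first and positions counted from 1 at its 5′ end, were T3C in Gm28438 (copy of mt-Nd3, 345 bases) and A1066T in Gm29216 (copy of mt-Co1, 483 aligned bases). The pairs of sequences are shown because this base, in capitals, is the only mismatch in the aligned stretch of each pair. Gm29216 aligned to 31.26% of mt-Co1 and Gm28438 to 99.14% of mt-Nd3. They are mt-Nd3 (chrM:9459-9499, plus strand), Gm28438 (chr1:24613079-24613119, minus strand), mt-Co1 (chrM:6390-6430, plus strand) and Gm29216 (chr1:24616148-24616188, minus strand).
mt-Nd3: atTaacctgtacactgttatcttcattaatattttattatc
Gm28438: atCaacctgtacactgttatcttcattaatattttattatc
mt-Co1: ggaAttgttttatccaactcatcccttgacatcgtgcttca
Gm29216: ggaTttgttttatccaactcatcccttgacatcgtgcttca

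The copies were listed at mitochondrial levels, 511 to 3875 FPKM, and in each tumor 3 or 4 of them were among the 20 highest genes, beside 4 to 6 mitochondrial genes. Gm28437, Gm28661 and Gm10222 had 0.976 to 1.00 times the FPKM of mt-Co3, mt-Co2 and mt-Nd4l. Gm28438 had 1.05 to 1.09 times that of mt-Nd3. The shorter partial copies were lower, Gm28439 at 0.497 to 0.555 times mt-Nd4 and Gm29216 at 0.387 to 0.467 times mt-Co1. Apart from mt-Atp6, each of these ratios kept within a narrow range over all 12 tumors. The other 4 listed copies with at least 95% identity, on chromosomes 2 and 13, were at 0 to 16.3 FPKM. mt-Nd1, mt-Nd6, mt-Cytb and mt-Atp8 had no listed copy of this identity. In a list of 9 of these copies, 0 had an unadjusted p below 0.05 by limma, and the median log2 fold change was -0.09. Levels of the 7 genes with a chromosome 1 copy are therefore uncertain as to which of the 2 genomes the fragments came from.

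**Figure D5:**
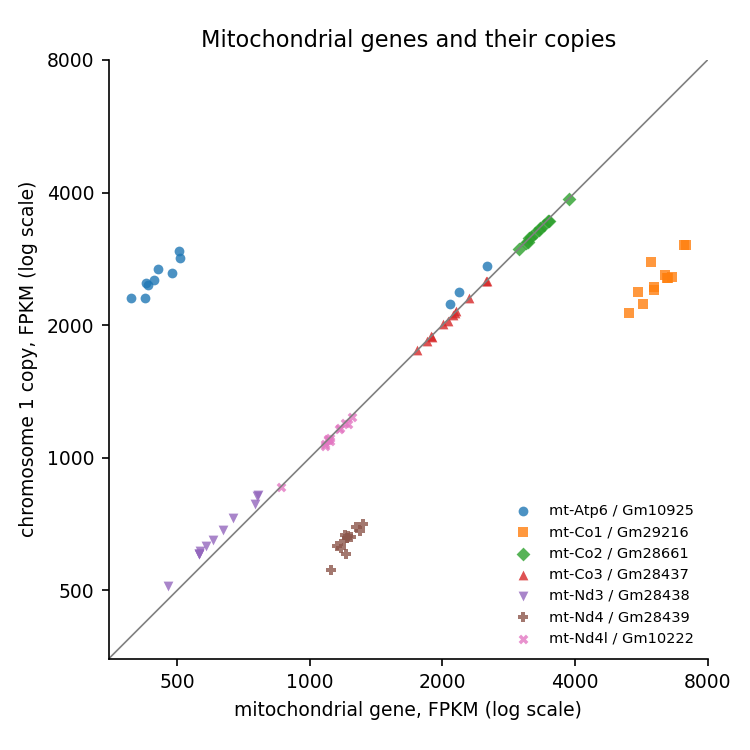
FPKM of each chromosome 1 copy (y axis) against the mitochondrial gene it copies (x axis), both on log scales, with 1 point per tumor and a line where both are equal. Copies of mt-Co3, mt-Co2 and mt-Nd4l lie on the line (0.976 to 1.00 times the gene), and mt-Atp6 is the pair whose points split in 2 clusters.

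The 2 mitochondrial rRNAs form the RNA core of the mitochondrial ribosome, and rRNA had been depleted before the libraries were made, so their values show what depletion left. mt-Rnr1, the 12S rRNA (chrM:70-1024, plus strand), was at 182 to 287 FPKM in the control tumors (median 229) and 228 to 279 FPKM in the swimming tumors (median 253). Its log2 fold change was 0.14 (SE 0.10, exact permutation p = 0.227). mt-Rnr2, the 16S rRNA (chrM:1094-2675, plus strand), was at 76.8, 65.1, 82.8, 68.6, 95.01 and 69.5 FPKM in control 1 to 6 and at 86.8, 83.2, 92.4, 99.2, 93.5 and 87.1 FPKM in swimming 1 to 6. All 6 swimming tumors were above the control median, but control 5 was above 5 of them. Means were 76.3 ± 11.2 and 90.4 ± 5.77 FPKM, and the log2 fold change was 0.25 (SE 0.08, interval 0.07 to 0.43). By limma p was 0.0108 before and 0.889 after Benjamini-Hochberg adjustment, and the exact permutation p was 0.0281. Without swimming 3, 4 and 5, a choice made after the mt-Atp6 values were seen, the log2 fold change was 0.18 (limma, unadjusted p = 0.133). These 3 tumors also held the highest mt-Rnr2 values of the swimming group. A smaller change was therefore set by the choice, and fewer tumors remained.

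In a list of 8 ribosomal and other abundant structured RNAs, 7 of which were tested and which includes both mitochondrial rRNAs, mt-Rnr2 and Rpph1 were higher at an unadjusted p below 0.05, 0 were lower, and 0 passed adjustment by limma. Rpph1, the RNA of nuclear RNase P, was at 1.41 to 2.88 FPKM in the control tumors and 2.56 to 4.84 FPKM in the swimming tumors, with a log2 fold change of 0.37 (SE 0.14, unadjusted p = 0.0206 by limma). The median log2 fold change of the list was 0.25, which is the value of mt-Rnr2 itself, and the range was -0.09 to 0.37. Whether depletion left different amounts of structured RNA in the tumors was not tested.

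Together the 13 mRNA genes made up 5.498 to 7.15% of the summed FPKM of a tumor, 6.34 ± 0.495% in the control tumors and 6.36 ± 0.445% in the swimming tumors. Their sum was 25105 ± 2129 FPKM in the control tumors and 25013 ± 1683 FPKM in the swimming tumors, which includes the high mt-Atp6 values of swimming 3, 4 and 5. Without mt-Atp6 the sum of the other 12 genes was 24642 ± 2093 FPKM against 23667 ± 1280 FPKM, with 2 of 6 swimming tumors above the control median and overlapping groups. With mt-Atp6 included, control 1 was lowest (21803 FPKM) and swimming 4 highest (28299 FPKM). The 7 chromosome 1 copies made up another 2.92 to 3.77%.

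The mRNA genes varied together between tumors, apart from mt-Atp6. With each group's mean taken out, the 66 pairs among the 12 other mRNA genes had a median Pearson r of 0.651 over 12 tumors, from 0.281 to 0.943. mt-Nd1 and mt-Nd6, which lie on opposite strands, formed the closest pair, but the values may not separate the strands. mt-Atp6 had a median r of 0.126 with the other mRNA genes, mt-Rnr2 of 0.210 and mt-Rnr1 of 0.00793, while the 2 rRNAs had an r of 0.769 with each other. These values describe 12 tumors whose FPKM share a library, a depth and the division by one total, and they carry no test.

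Nuclear genes that act on the mitochondrial genome were described by lists. Among 21 genes of mitochondrial transcription and DNA maintenance, 1 was higher and 0 were lower at an unadjusted p below 0.05, 0 passed adjustment, and the median log2 fold change was -0.02. The 1 gene was Tfb1m, the methyltransferase of the mitochondrial 12S rRNA, at 6.02 to 7.83 FPKM in the control tumors and 7.52 to 8.63 FPKM in the swimming tumors. All 6 swimming tumors were above the control median, and the log2 fold change was 0.18 (SE 0.06, adjusted p = 0.889 by limma with Benjamini-Hochberg adjustment, exact permutation p = 0.013). Polrmt, the mitochondrial RNA polymerase, had 6.39 and 6.47 FPKM on average (log2 fold change 0.01), and Tfam, which packs the mitochondrial DNA and starts transcription, had 10.2 and 9.89 FPKM (log2 fold change -0.04).

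Of 22 genes of mitochondrial RNA processing and stability, 0 had an unadjusted p below 0.05 by limma and the median log2 fold change was -0.04. Lrpprc, which stabilizes mitochondrial mRNAs, was at 11.6 ± 0.968 and 11.5 ± 0.748 FPKM. Of 13 genes of mitochondrial translation 0 were called either (median -0.01), and 0 of the 11 tested regulators of mitochondrial biogenesis (median 0.02). Among the latter Ppargc1a, the coactivator PGC-1α, was low at 0.214 to 0.378 FPKM in the control tumors and 0.280 to 0.526 FPKM in the swimming tumors, with a log2 fold change of 0.10 that the added 1 makes smaller (limma, unadjusted p = 0.107).

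Of 13 tested identifiers of the mitochondrial unfolded protein and stress response, 0 were higher and 1 was lower at an unadjusted p below 0.05, with a median log2 fold change of -0.07. The 1 gene was Hspa9, the Hsp70 chaperone of the matrix, at 302 to 390 FPKM in the control tumors and 281 to 342 FPKM in the swimming tumors, with a log2 fold change of -0.16 (SE 0.07, exact permutation p = 0.0498). Of 35 nuclear subunits of the respiratory chain and the ATP synthase, most of them partners of the members in the same complexes, 0 were higher and 1 was lower, with a median of 0.01. This was Uqcrc2, a core subunit of complex III, at 40.8 to 48.7 FPKM against 39.5 to 42.9 FPKM, with a log2 fold change of -0.12 (SE 0.05, exact permutation p = 0.0281). By limma with adjustment 0 genes of any of these lists passed.

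Skeletal muscle is rich in mitochondria, and its markers differed widely between tumors. The summed level of 14 muscle markers was 19.5 to 252 FPKM in the control tumors and 12.45 to 339 FPKM in the swimming tumors, and 0 of the 14 had an unadjusted p below 0.05 by limma (median log2 fold change 0.38). The highest sums were in swimming 5 (339 FPKM), control 6 (252 FPKM) and swimming 3 (240 FPKM), and it was 91.9 FPKM in swimming 4, whose mt-Atp6 was the highest. Red blood cell markers were highest in swimming 4 (1234 FPKM) and at 151 to 598 FPKM in the other tumors. Leukocyte markers summed to 728 to 1098 FPKM, and 1 of the 8 was called at an unadjusted p below 0.05, Cd8a, at 1.47 ± 0.710 FPKM in the control tumors and 2.80 ± 1.19 FPKM in the swimming tumors. Of the 6 fibroblast, 4 endothelial and 4 red blood cell markers, and of the 5 adipocyte and 5 epithelial markers that passed the filter, 0 had an unadjusted p below 0.05. The part of these cells in the mitochondrial values was not tested.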

How the data were processed

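RNA was extracted from 12 tumors with Trizol, depleted of rRNA with the NEBNext kit and sequenced. The authors mapped reads with HISAT2 2.0.5 and quantified genes with StringTie 1.3.3, and deposited FPKM per gene and tumor, which are already divided by length and depth. Their methods name hg38, the submitters' processing notes name hg38 and GRCm38, and the listed identifiers are mouse ones. How fragments mapping to several places were divided is not given in the sources used here.

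Symbols, coordinates and sequences were matched by Ensembl identifier to GENCODE M21 on GRCm38, which named 30542 identifiers and not the other 88. Nuclear copies were found with BLASTN 2.17.0 at 95% identity or more over at least 80% of the copy. Groups were compared on log2(FPKM + 1) in limma 3.58.1 under R 4.3.3 (lmFit, then eBayes with trend), with group as the only term and Benjamini-Hochberg adjustment. All 12 tumors entered. Exact permutation tests used scipy 1.17.1 (Python 3.11.15, pandas 2.3.3), and matplotlib 3.10.9 drew the plots. The fit was also tested on simulated data of 19018 genes. When 200 genes were shifted by a log2 value of 0.25, 0.5 or 1, 6%, 78% and 93% of them passed at an adjusted p of 0.05, as did 0, 13 and 16 unchanged genes.

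The members and the gene lists were chosen with earlier results of these data known. Named are all members, Tfam, Polrmt, Lrpprc and Ppargc1a, list genes with an unadjusted p below 0.05, and the 5 genes most and least like the summed mRNA level. The epithelial and mesenchymal markers, the other nuclear copies and the markers of the cell types were named in addition. Alternatives were pseudocounts of 0.1 and 0.01, no filter, a filter of 1 FPKM, quantile, trimmed mean and nuclear sum scaling, eBayes without trend, array weights, a replicate block, copies added to genes, and leaving out tumors.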

Additional observations from a re-analysis of the deposited data

Results flagged for a closer look

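A tumor was marked when its gap to the nearest tumor of its group took more of the group's range than Dixon's critical share for 6 values. Of 36 groups of 6 values looked at, 3 held such a tumor, where chance alone gives about 1 in 20 groups, here 1.8. These groups are not independent, since the sums are made of the members and the mRNA genes varied together. Setting 3 beside 1.8 is therefore no test. mt-Nd4l was at 863 FPKM in control 1 and at 1099 to 1219 FPKM in the other control tumors. mt-Nd5 was at 596 FPKM in swimming 6 and at 776 to 866 FPKM in the other swimming tumors. The sum of the 13 mRNA genes was 28299 FPKM in swimming 4 and 23666 to 24933 FPKM in the other swimming tumors, and 2527 FPKM of the sum in swimming 4 were from mt-Atp6. mt-Atp6 itself was not marked, because swimming 3, 4 and 5 lie close to each other.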

How the results depend on the processing

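With limma, 0 mitochondrially encoded genes had an adjusted p below 0.05 under any alternative, the smallest adjusted p being 0.517. Over all genes, 0 were called at this threshold with all tumors, 1 with array weights, 2 without swimming 3, 4 and 5, and 0 to 3 with one tumor left out. At an unadjusted p below 0.05 the count over all genes was 1058, and 833 to 1443 with one tumor left out. The count of members was 2, but 1 with array weights, 1 with nuclear copies added, 0 without swimming 3, 4 and 5, and 1 to 2 with one tumor left out. mt-Rnr2 kept an unadjusted p below 0.05 in 23 of 24 alternatives, and mt-Atp6 in 12, with p from 0.0111 to 0.0929 when one tumor was left out and below 0.05 in 3 of 12 such fits, those without swimming 1, 2 or 6. The summed level of the 13 mRNA genes differed by -91.7 FPKM, swimming minus control, by -752 to 435 FPKM with one tumor left out, by -678 FPKM with nuclear copies added and by -976 FPKM with mt-Atp6 left out of the sum, a choice made after seeing the data. These differences were less than the SD between tumors (1919 FPKM).

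Without swimming 3, 4 and 5 the log2 fold change of mt-Atp6 went from 1.09 to -0.10. Other log2 fold changes, all near 0, also changed sign. Without the same tumors mt-Nd1 was -0.0183, mt-Nd2 -0.0555 and mt-Nd5 -0.0251. mt-Nd1 was -0.0019 with trimmed mean scaling, mt-Nd3 -0.00165 with array weights and mt-Cytb 0.0229 with quantile normalization. With one tumor left out the ranges that crossed 0 were -0.0275 to 0.0320 for mt-Nd1, -0.0300 to 0.0440 for mt-Nd2, -0.0629 to 0.0733 for mt-Nd3, -0.0346 to 0.0651 for mt-Nd4l, -0.0388 to 0.11 for mt-Nd5 and -0.00426 to 0.0548 for mt-Nd6. mt-Atp6 ranged from 0.82 to 1.36 and mt-Rnr2 from 0.21 to 0.32. The causes were not tested beyond the tumors left out. The alternative without swimming 3, 4 and 5 was chosen after seeing the data.

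The numbers 1 to 6 occur in both groups, but the tumors are from different mice and same-numbered tumors did not deviate together (mean r -0.12, pairs from -0.32 to 0.00588). With the replicate block 892 genes had an unadjusted p below 0.05 and 0 an adjusted one, and 2 members had an unadjusted p below 0.05. The unknown depth, 6 tumors per group and sequence shared with nuclear copies limit these values.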

Other observations

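Among 8137 genes with a mean of at least 5 FPKM, those whose log2 level, with group means taken out, went most with the summed level of the 13 mitochondrial mRNA genes over 12 tumors were Copb1, a coat protein of Golgi vesicles (Pearson r 0.934, 23.8 to 27.3 FPKM), Gm28439, the chromosome 1 copy of mt-Nd4 (r 0.911), Tymp, thymidine phosphorylase (r 0.910), Sec1 (r 0.899) and Wdr36 (r 0.881). Those that went most against it were Rrbp1, a ribosome-binding protein of the endoplasmic reticulum (r -0.922, 31.1 to 38.9 FPKM), Jak3, a kinase of cytokine receptors in lymphocytes (r -0.866), Nprl2 (r -0.862), Gatad2a (r -0.857) and Cherp (r -0.842). They were picked as the extremes of many genes over 12 tumors that share 1 FPKM total per tumor, and the values are a description without a test.

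The ratio of mt-Rnr1 to mt-Rnr2 was 2.79 to 3.25 in the control group and 2.43 to 3.20 in the swimming group, and the groups overlapped. Adipocyte markers summed to 184 FPKM in control 1, the tumor with the lowest level of the mitochondrial mRNA genes, and to 6.92 to 45.5 FPKM in the other tumors. Fibroblast markers in control 1 summed to 789 FPKM, the highest of the 12 tumors.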
